A study of Mus musculus with 20 samples.

Results

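Ion channel genes were followed through total RNA, polysomal RNA, 3' end and HuD crosslinking data of NSC-34 cells, a mouse hybrid line of neuroblastoma and motoneuron-enriched embryonic spinal cord. The set holds every gene of the RNA-Seq and POL-Seq table whose symbol starts with Kcn, Cacn or Clcn, or with Scn and a digit, apart from the imprinted antisense transcript Kcnq1ot1. This gave 77 of 14924 genes. By symbol, the potassium channels comprised 18 voltage-gated pores, 7 inward rectifiers, 6 pores activated by calcium or sodium, 5 leak channels and 6 auxiliary subunits. There were 6 calcium channel pores and 11 calcium channel auxiliary subunits, 7 sodium channel pores and 3 sodium channel beta subunits, and 7 chloride channels or exchangers. The remaining gene, Kcnmb4os2, is an RNA antisense to Kcnmb4.

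The HuD cells (Trex-HuD) carry a lentiviral, tetracycline-inducible human HuD with a His-HA tag under a CMV promoter with Tet operators. They had 2 μg/ml tetracycline for 48 h before total RNA (RNA HuD, 2 libraries), polysomal RNA (POL HuD, 2 libraries) and 3' end sequencing (3' end HuD, 3 libraries). Each was set against control NSC-34 cells in the same numbers, for which the labels do not say whether they had tetracycline. For the crosslinking experiment (CRAC), 3 HuD libraries and 3 libraries of control Trex cells, which hold the tetracycline receptor alone, both had 10 μg/ml for 24 h per the labels, while the study's text gives a lower dose of doxycycline for a longer time, and which was used cannot be told from these sources. The series describes the replicates as biological duplicates and triplicates, with no word on whether they were separate inductions.

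Voltage-gated channels open a pore for sodium, potassium or calcium when the membrane depolarizes. Sodium channels carry the upstroke of the action potential, potassium channels end it and set the resting potential, and calcium channels couple it to transmitter release and signalling. In motor neurons these channels set firing rate and excitability, and auxiliary subunits govern how many pores reach the membrane. HuD (ELAVL4) is a neuronal RNA-binding protein of the ELAV family that binds U-rich stretches, often in 3' UTRs.

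Depth was 21296012 to 36284728 counted reads per library for total and polysomal RNA, and 10154407 to 12295080 for the 3' ends. Of 15 markers of neurons and motor neurons, 12 reached a mean of 1 CPM (counts scaled to the same library total), led by Uchl1, Prph, Tubb3 and Nefh. Chat, which makes acetylcholine, was at 0.449 to 0.544 CPM in total RNA, and Slc5a7 and Mnx1 had no row. None of 4 microglia and 5 fibroblast markers had a row in the table used here. Of 5 oligodendrocyte markers, 2 had one, Mbp among them, with a sum of 13.8 to 18.4 CPM over the 8 libraries and ranges that overlapped between groups, and of 5 astrocyte markers Gfap alone, at 0.329 to 0.634 CPM. The mouse Elavl4 row was 87.8 ± 13.6 CPM (SD, n = 2) in RNA control and 224 ± 17.6 CPM (SD, n = 2) in RNA HuD, while the 3' end counts of the gene were 79.9 ± 28.4 CPM (SD, n = 3) in the controls and 56.9 ± 15.4 CPM (SD, n = 3) with HuD. Those 3' end counts gave a log2 change of -0.49 ± 0.29 (SE, edgeR unadjusted p = 0.126, adjusted p = 0.922), and with same-numbered libraries as pairs -0.46 ± 0.10 (SE, edgeR adjusted p = 0.0269), so that the pairing changed the call. How many reads of the row came from the human transgene was not tested. The POL control libraries differed most from each other, with an SD of 0.28 (log2) over the difference of 9702 genes of at least 10 CPM, against 0.13 to 0.21 in the other pairs of total and polysomal libraries. In 3' end data the libraries numbered 2 stood apart in both groups, with SDs of 0.36 to 0.49 from the others of their group, against 0.22 and 0.25 between the libraries numbered 1 and 3.

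CRAC placed a HuD site in 2 of the 77 channel genes, Kcnk3 and Clcn4-2. Kcnk3 encodes an acid-sensitive potassium leak channel that holds the resting potential, and Clcn4-2 encodes an endosomal chloride and proton exchanger. Both sites lie in the 3' UTR, and they are shown because they are the only sites listed for this set. Capitals mark the 7 nt window that the authors scored, with 11 nt on each side from the GENCODE vM21 transcript.
Kcnk3 site, 5' to 3', chr5:30623871-30623877 (GRCm38, plus strand): accuccguauuCAUUUGAguguaauaaca
Clcn4-2 site, 5' to 3', chr7:7283418-7283424 (GRCm38, minus strand): aaaaggggacaCAUUUUUacuuugagggg

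The Kcnk3 site had 13 covering reads in HuD cells, of which 3 carried a deletion at the site, the mark left by reverse transcription across a crosslinked base. It had no read in control cells. It lies 1394 nt before the end of its 3811 nt transcript, in a 3' UTR of 2437 nt. The Clcn4-2 site had 6 covering reads and 3 deletions in HuD cells and no read in control cells, and lies 1109 nt before the end of a 4607 nt transcript, in a 3' UTR of 1878 nt. The authors pooled the 3 replicates, so neither site has a replicate error, and the reads per library behind them are unknown. Both sites were thin. The lowest values in the whole table were 6 reads and 3 deletions, and the median over 2598 windows in protein coding genes was 26 reads and 5 deletions. Only 29.1% of those windows had 13 reads or fewer and 5.39% had 6. The authors' combined p-value was 0.344 for Kcnk3 and 0.408 for Clcn4-2. Neither gene stayed in the list when sites needed a combined p under 0.05, or when they needed at least 5 deletions. Over all coding genes of the RNA-Seq table, the share with a site also fell, from 9.90% to 2.19% and 6.04%.

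The share of channel genes with a site, 2.60%, was below the 9.90% of all 12953 protein coding genes of the RNA-Seq table. Of 4389 genes between the lower and upper quartile of the channel genes in control total RNA, 1.26 to 26.5 CPM, 2.26% had a site. Both channel genes with a site lie above that range, so the shares are not of like sets. Sites were more frequent among abundant transcripts, since 19.3% of 5198 genes of at least 50 CPM had one, against 5.28% of 4341 genes between 10 and 50 CPM and 1.42% of 2400 genes between 1 and 10 CPM. Both channel genes with a site were among the 12 channel genes of at least 50 CPM. None of the 22 channel genes between 10 and 50 CPM, or of the 42 coding ones below that, had one. The window sequences themselves were frequent in 3' UTRs. CAUUUUU was found in 25 of 76 channel 3' UTRs, or 32.9%, and in 26.3% of 12825 3' UTRs of all coding genes, and CAUUUGA in 16, or 21.1%, against 14.9%. Channel 3' UTRs were longer, with a median of 1862 nt against 1148 nt, and had more G and C, with a median of 50.5% against 45.0%. Per kb of 3' UTR, CAUUUUU occurred 0.226 times in channel genes and 0.240 times in all genes.

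Most channel genes were weakly to moderately expressed. In control total RNA the median channel gene was at 7.56 CPM, against 35.2 CPM for all protein coding genes. Of the 77 genes, 34 reached 10 CPM, or 44.2% against 73.6% of coding genes, and 15 were below 1 CPM. Levels were compared between genes as FPKM, the CPM per kb of annotated exon length. Calcium channel auxiliary subunits made up 35.3% of the FPKM summed over the set, followed by voltage-gated potassium pores at 14.7% and chloride channels and exchangers at 12.7%. The calcium channel pores together made up 3.56%.

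The highest channel gene of all was Cacng7, at 55.8 and 52.1 FPKM in the control libraries. It encodes a gamma subunit of the family that also escorts AMPA receptors. Cacnb3, a cytoplasmic beta subunit that brings calcium channel pores to the membrane, followed at 27.8 and 27.6 FPKM, and Cacng3 was next among the calcium channel auxiliary subunits at 7.90 and 8.88 FPKM. The calcium channel pores were lower, whether or not they pair with these subunits. Cacna1b, the N-type channel of transmitter release, was at 3.39 and 3.43 FPKM, Cacna1c, an L-type channel, at 2.23 and 2.52 FPKM, and Cacna1i, a T-type channel that opens near rest, at 2.16 and 2.20 FPKM.

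Among potassium channels, Kcnh2, the ERG channel that repolarizes the heart, led at 24.9 and 23.6 FPKM. Kcnk3, with one of the CRAC sites, was at 24.2 and 22.7 FPKM, so that these genes did not differ beyond the spread of their libraries. The inward rectifiers were led by Kcnj12, a strong rectifier, at 10.8 and 9.97 FPKM, then the G protein-gated Kcnj9 at 6.33 and 4.35 FPKM and Kcnj4 at 1.89 and 1.93 FPKM. Kcnk1 and Kcnk5 were the next leak channels, at 4.22 and 4.41 FPKM and at 1.05 and 1.17 FPKM. Of the pores activated by calcium or sodium, Kcnn3, a small-conductance channel of the afterhyperpolarization, was at 2.22 and 2.67 FPKM, Kcnn1 at 1.58 and 1.72 FPKM, and Kcnu1 at 0.509 and 0.352 FPKM. The auxiliary subunits Kcnab2 (9.16 and 8.29 FPKM), Kcnip3 (4.25 and 3.61 FPKM) and Kcnmb4, of the large-conductance channel (1.72 and 1.69 FPKM), followed each other in that order.

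Scn8a, the main sodium channel of nodes of Ranvier and axon initial segments, was the leading sodium pore at 5.99 and 6.47 FPKM. Scn9a, known from sensory neurons, was at 1.61 and 1.97 FPKM. The beta subunit Scn3b was above every pore, at 14.8 and 15.5 FPKM, and Scn2b was at 0.215 and 0.221 FPKM. The chloride group was led by the lysosomal exchanger Clcn7 at 12.9 and 13.7 FPKM, followed by the late endosomal Clcn6 at 8.29 and 8.81 FPKM and Clcn4-2 at 5.97 and 6.72 FPKM. The plot of levels by role gives the order within each class.

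**Figure D1:**
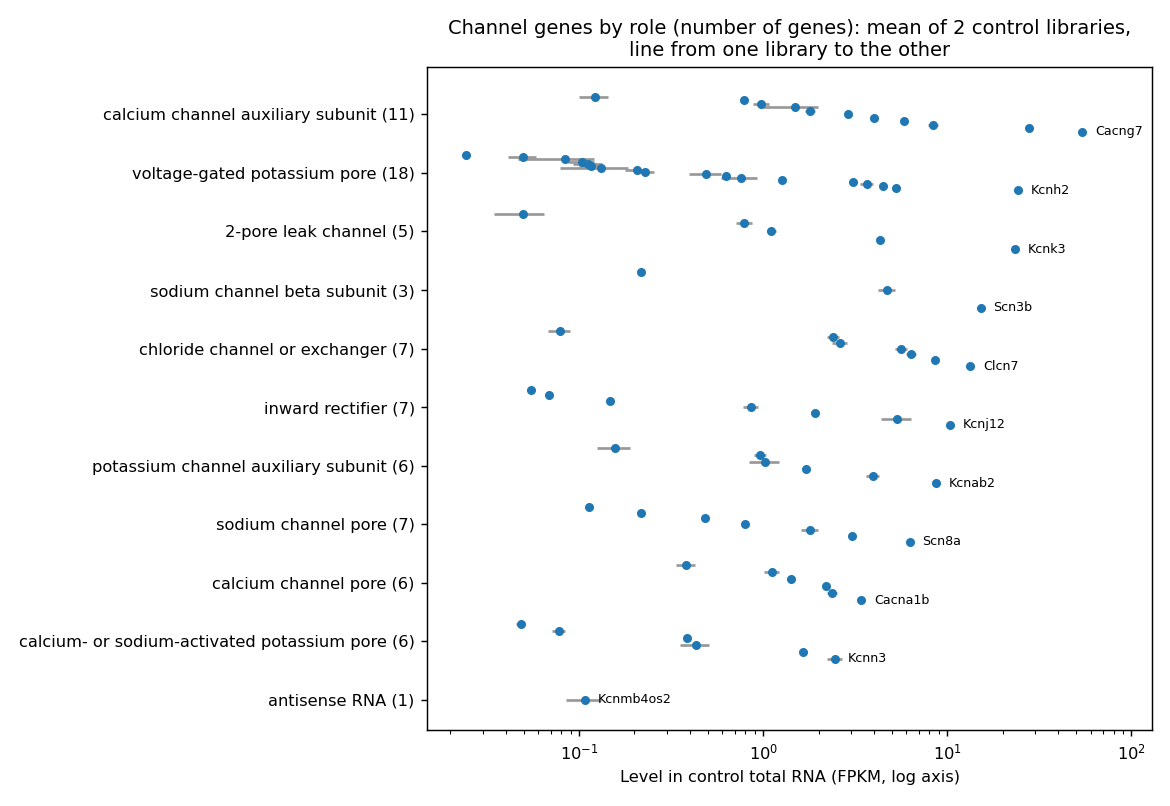
Level of each of the 77 channel genes in control total RNA, in FPKM on a log axis, with 1 row per role and the highest gene of each role named. Points are means of 2 control libraries and lines join both values; the highest, Cacng7, lies above 50 FPKM and the lowest, Kcnh7, at 0.0242 FPKM.

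The first comparison asked whether induced HuD changed channel mRNA in total RNA. No channel gene passed an adjusted p of 0.05 (edgeR quasi-likelihood test, Benjamini-Hochberg), as none of the 14906 genes tested did (0%). At an unadjusted p under 0.05 there were 2 channel genes, or 2.60%, against 2.64% of all genes. Over the 77 genes the median log2 change was 0.06 (all genes -0.00), with 48 genes above 0. For the 34 genes of at least 10 CPM the highest log2 change was 0.30 (Clcn2), and the median SE was 0.11.

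Clcn2, a chloride channel of the cell membrane that opens on hyperpolarization, lies at chr16:20702964-20717746 (minus strand). It was at 13.3 and 15.5 CPM in RNA control and at 17.8 and 17.8 CPM in RNA HuD, so the groups did not overlap. Its log2 change was 0.30 ± 0.12 (SE, edgeR unadjusted p = 0.0277, adjusted p = 1.00). In polysomal RNA it was at 11.7 and 13.3 CPM in control and at 13.3 and 12.8 CPM in HuD cells, and no 3' end was counted for it.

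Kcnmb4os2 was the other gene, at 0.267 and 0.172 CPM in RNA control and 0.408 and 0.419 CPM in RNA HuD. Its log2 change was 0.92 ± 0.41 (SE, edgeR unadjusted p = 0.0478, adjusted p = 1.00). It lies at chr10:116473163-116475319 on the plus strand and overlaps the start of Kcnmb4 (chr10:116417861-116473878, minus strand). The kit kept strand, but the sources used here do not say which strand was counted, so reads of the overlap may belong to either gene.

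Kcnk3 and Clcn4-2, the genes with a HuD site, were not among them. Kcnk3 was at 96.3 and 90.2 CPM in RNA control and 88.5 and 87.9 CPM in RNA HuD, a log2 change of -0.08 ± 0.10 (SE, edgeR unadjusted p = 0.450). In polysomal RNA it was at 105 and 86.8 CPM in control and 91.9 and 97.8 CPM in HuD cells, and the groups overlapped. Clcn4-2 was at 51.2 and 57.7 CPM in RNA control and 57.6 and 55.9 CPM in RNA HuD, a log2 change of 0.06 ± 0.09 (SE, edgeR unadjusted p = 0.529). Its polysomal values were 55.1 and 62.0 CPM in control and 64.5 and 63.1 CPM in HuD cells, which did not overlap and gave a log2 change of 0.12 ± 0.09 (SE, edgeR unadjusted p = 0.205).

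Single genes aside, channel genes lay higher in HuD cells more often than lower. In total RNA both HuD libraries were above both controls for 26 of 77 channel genes, or 33.8%, against 15.1% of all genes, and below for 6, or 7.79%, against 16.7%. In polysomal RNA this held for 21 genes, or 27.3%, against 14.1% higher and for 5, or 6.49%, against 14.6% lower. Genes of similar level leaned the same way, but less. Among the 5174 genes at 1.26 to 26.5 CPM the shares in total RNA were 18.5% higher and 12.0% lower, with a median log2 change of 0.02. Of the 39 channel genes in that range, 15 were higher and 1 lower, with a median of 0.07. In polysomal RNA 11 of the 39 were higher and 4 lower, against 16.7% and 13.2% of all genes in the range. The differences were small. The 11 channel genes higher without overlap in both fractions included Cacnb1, Clcn6 and Cacna1i at 20 CPM or more, while Cacnb4, Cacng5, Kcnd1, Kcnj4, Kcnmb4os2, Scn2a1 and Scn3a were below that. These 11 are 14.3% of the set, against 4.55% of all genes. No channel gene was lower without overlap in both, where 5.25% of all genes were. All 7 sodium channel pores had a log2 change above 0 in both fractions, with medians of 0.09 and 0.08. The 7 chloride channels or exchangers were alike, with 6 above 0 in total RNA and 7 in polysomal RNA. Of 6 potassium channel auxiliary subunits, 2 were above 0 in total RNA and 1 in polysomal RNA. Other classes were mixed. In total and polysomal RNA, 8 and 11 of 18 voltage-gated potassium pores were above 0, and 2 and 2 of 5 leak channels. For calcium channels it was 6 and 9 of 11 auxiliary subunits, and 5 and 4 of 6 pores. The rest were 4 and 5 of 7 inward rectifiers, 5 and 4 of 6 pores activated by calcium or sodium, and 2 and 2 of 3 sodium channel beta subunits. Over all genes, 48.7% were above 0 in total RNA and 48.4% in polysomal RNA. With 2 libraries per group these counts are a description, and no test was run on them.

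**Figure D2:**
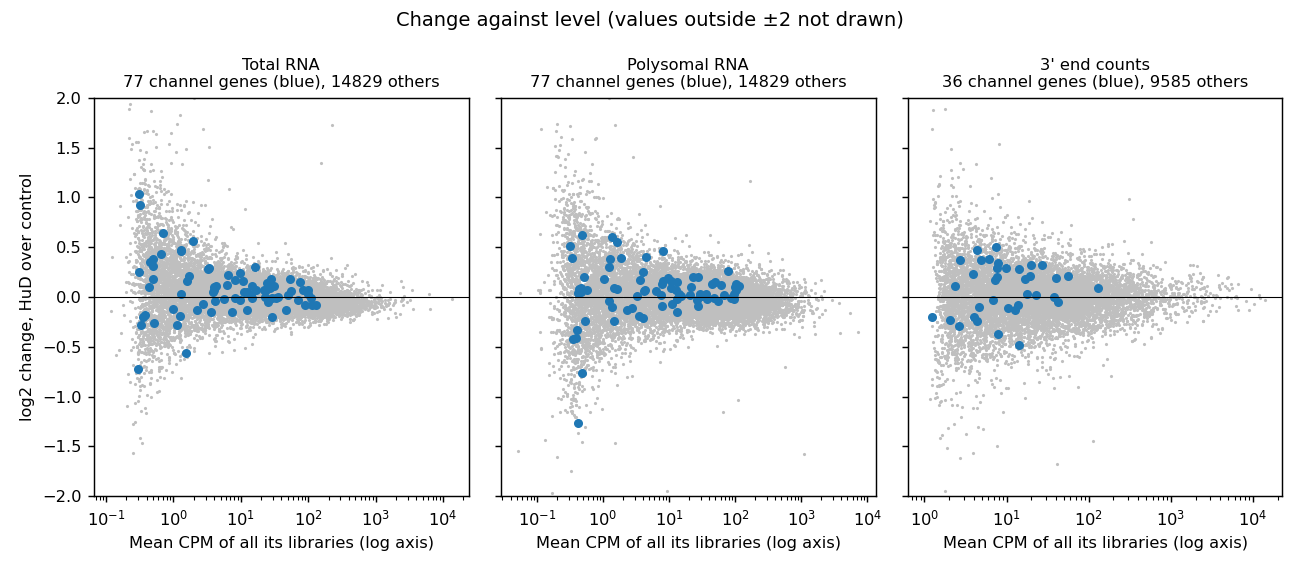
Log2 change of HuD over control (y axis) against mean CPM on a log axis, for total RNA, polysomal RNA and 3' end counts, with channel genes in blue and all other tested genes in grey. The channel genes lie inside the grey cloud, with medians of 0.06, 0.06 and 0.14 above the medians of all genes near 0.

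In polysomal RNA, the mRNA bound to translating ribosomes, again no channel gene and none of 14906 genes (0%) passed an adjusted p of 0.05 in edgeR. At an unadjusted p under 0.05 there were 4 channel genes, or 5.19%, against 4.17% of all genes. The median log2 change over the set was 0.06 (all genes -0.01), with 53 of 77 genes above 0. It rested on single libraries, at 0.13 without POL control 1, 0.10 without POL HuD 2 and 0.01 without POL control 2 (all genes 0.01, -0.01 and -0.00). Among genes of at least 10 CPM the lowest was -0.15 (Kcnip3).

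Of the 4 genes under an unadjusted p of 0.05, 3 were at low counts. Kcnj4, a strong inward rectifier, was at 4.35 and 3.27 CPM in POL control and 5.35 and 4.84 CPM in POL HuD, a log2 change of 0.40 ± 0.17 (SE, edgeR unadjusted p = 0.0416). Cacnb4, a calcium channel beta subunit, was at 1.16 and 1.01 CPM in control and 1.75 and 1.56 CPM in HuD cells, a log2 change of 0.60 ± 0.26 (SE, edgeR unadjusted p = 0.0465). Kcnj10, a rectifier best known from glia, was at 0.608 and 0.577 CPM in control and 0.296 and 0.187 CPM in HuD cells, a log2 change of -1.27 ± 0.43 (SE, edgeR unadjusted p = 0.0165). The adjusted p was 0.969 for each of the 3.

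These counts rested on single libraries. In total RNA the count of 2 went to 1 without RNA control 1, RNA HuD 1, POL HuD 1 or POL HuD 2, and to 0 without RNA HuD 2, where 1.78% to 2.03% of all genes were under the same threshold. In polysomal RNA it went from 4 to 13 without POL control 1, or 16.9% against 21.9% of all genes, and 1 of these also passed the adjusted threshold, or 1.3% against 2.49%. Without POL control 2 it went to 7, or 9.09% against 5.37% of all genes. It went to 2 without POL HuD 1, RNA HuD 1 or RNA HuD 2 and to 1 without POL HuD 2, or 1.3% to 2.60%, against 1.63% to 3.20% of all genes.

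**Figure D3:**
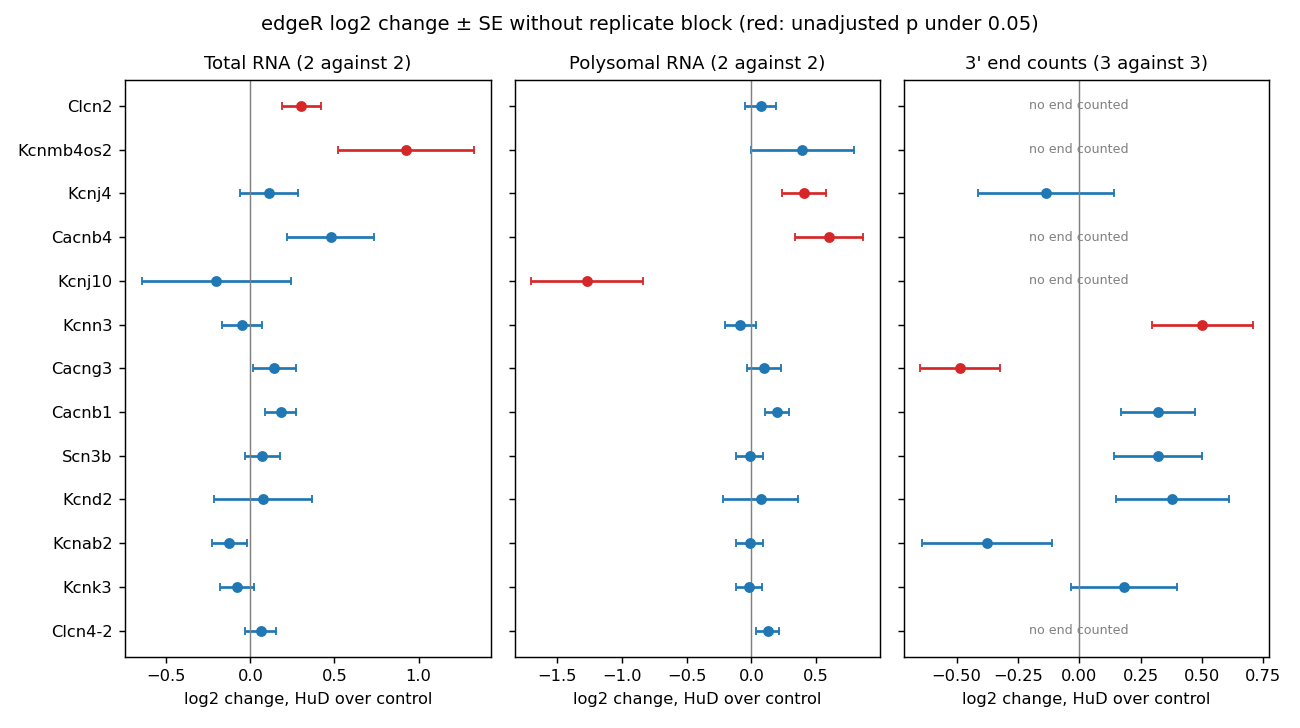
Log2 change of HuD over control (x axis, points, with bars of 1 SE) for 13 channel genes in total RNA, polysomal RNA and 3' end counts, from the fits without a replicate block. Red marks an unadjusted p under 0.05; Cacnb1 lies above 0 in all 3 panels, and Kcnk3 and Clcn4-2 within 0.2 of 0.

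The change in translational efficiency (TE) was taken as the HuD effect on polysomal over that on total RNA. No channel gene passed at an adjusted p of 0.05, with 0% of all genes, nor at an unadjusted p under 0.05, where 0.979% of all genes did. DESeq2 gave none either, against 0.335% of all genes at an unadjusted p under 0.05. The median log2 change in TE was -0.00 for channel genes and -0.01 for all genes. Kcnj14, an inward rectifier of motor nuclei, had the smallest p of the set. Its polysomal values were 1.58 and 1.01 CPM in control and 1.78 and 2.16 CPM in HuD cells, while total RNA was at 2.53 and 2.11 CPM in control and 1.80 and 2.43 CPM in HuD cells. The log2 change in TE was 0.69 ± 0.38 (SE, edgeR unadjusted p = 0.103, adjusted p = 1.00). For the genes of at least 10 CPM the lowest value was -0.23 (Clcn2), and the median SE was 0.15. Without POL control 1 there were 6 channel genes at an unadjusted p under 0.05, or 7.79% against 13.6% of all genes, and the median was 0.07. There was 1, or 1.3%, each without POL control 2, POL HuD 1 or RNA HuD 2, against 0.704% to 1.80% of all genes.

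Within control cells, polysomal was compared with total RNA to see which channel mRNAs were more or less loaded on ribosomes. Control cells also express Elavl4, at 87.8 CPM in RNA control, so this is not a state without HuD. Of all genes, 26 (0.174%) passed an adjusted p of 0.05, and no channel gene was among them. At an unadjusted p under 0.05 there were 6 channel genes, or 7.79%, against 10.7% of all genes. DESeq2 gave 4, or 5.19%, against 8.89% of all genes. The 5 genes with the smallest p towards polysomes were Cacna2d1, Scn2a1, Scn3a, Clcn5 and Kcnk6. Cacna2d1, the alpha2delta subunit that binds gabapentin, was at 34.8 and 37.1 CPM in total and 41.2 and 44.9 CPM in polysomal RNA, a log2 difference of 0.26 ± 0.08 (SE, edgeR unadjusted p = 0.0128, adjusted p = 0.458). Scn2a1, a sodium channel of brain axons, was at 10.2 and 9.95 CPM in total and 11.2 and 13.7 CPM in polysomal RNA, a log2 difference of 0.30 ± 0.12 (SE, edgeR unadjusted p = 0.0360). Scn3a, a sodium channel of embryonic neurons, and Clcn5, an endosomal exchanger, had log2 differences of 0.30 and 0.26 that missed the threshold, as did the 1.15 of the scarcely expressed Kcnk6. Annotated exon length was 11452 to 12732 nt for these genes apart from Kcnk6, which has 4151 nt.

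The 5 genes with the smallest p in the other direction were Kcnj14, Cacng7, Kcnh2, Kcnmb4 and Cacng8, with exon lengths of 2345 to 4845 nt, and the part of length in this order was not tested. Kcnj14 had a log2 difference of -0.80 ± 0.28 (SE, edgeR unadjusted p = 0.0174). Cacng7 was at 136 and 127 CPM in total and 117 and 86.0 CPM in polysomal RNA, a log2 difference of -0.38 ± 0.14 (SE, edgeR unadjusted p = 0.0278). Kcnh2 was at 120 and 114 CPM in total and 108 and 89.2 CPM in polysomal RNA, a log2 difference of -0.25 ± 0.10 (SE, edgeR unadjusted p = 0.0309). Kcnmb4 had -0.48 ± 0.21 (SE, edgeR unadjusted p = 0.0469) and Cacng8 -0.35 ± 0.17 (SE, edgeR unadjusted p = 0.0762). For Cacng7, Kcnh2 and Kcnj14 the second POL control library was the lower one. The count of 6 was 14 without POL control 1, or 18.2% against 32.2% of all genes, with 9 past the adjusted threshold, or 11.7% against 14.4%. It was 3 without POL HuD 1, or 3.90% against 7.95%, and 1 without POL control 2 or RNA control 1, or 1.3% against 5.04% and 3.89%. By class, 5 of 7 sodium channel pores but 1 of 7 inward rectifiers and 3 of 11 calcium channel auxiliary subunits lay above 0. Over all genes 51.7% lay above 0.

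For 3' ends, 36 of the 77 channel genes had a counted end, and 24 of those reached 10 CPM in control total RNA. Read starts were counted within 10 nt of known polyadenylation sites and summed per gene after ends within 20 nt were merged. Of 9621 genes, 4 (0.0416%) passed an adjusted p of 0.05 without a block, none of them a channel gene. At an unadjusted p under 0.05 there were 2 channel genes, Kcnn3 and Cacng3, or 5.56% against 5.86% of all genes. DESeq2 gave 1, or 2.78% against 4.71%. Same-numbered libraries deviated together, and with the replicate number as a block the counts were 8 channel genes, or 22.2%, against 18.7% at an unadjusted p under 0.05. No channel gene then passed an adjusted p of 0.05, against 2.61% of all genes. The median log2 change was 0.14 over the 36 genes (all genes -0.00), with 22 genes above 0, or 61.1% against 49.6% of all genes. It was 0.04 without 3' end HuD 3, 0.07 without 3' end control 2 and 0.09 without 3' end HuD 1, with the median of all genes within 0.01 of 0 each time.

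Cacng3, a gamma subunit that escorts AMPA receptors, was the one channel gene whose 3' end counts were lower without overlap, 2.78% of 36 against 5.79% of all genes. It lies at chr7:122670492-122769393 (plus strand). Counts were 17.4, 16.7 and 16.2 CPM in control and 11.3, 11.1 and 13.5 CPM in HuD cells, a log2 change of -0.49 ± 0.16 (SE, edgeR unadjusted p = 0.0146, adjusted p = 0.700). With the block the adjusted p was 0.0777. In total RNA it was at 21.9 and 24.7 CPM in control and at 24.1 and 27.3 CPM in HuD cells, a log2 change of 0.14 ± 0.13 (SE, edgeR unadjusted p = 0.300).

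Higher without overlap were 6 genes, or 16.7% against 6.11% of all genes, among them Kcnn3, Cacnb1, Cacng5, Clcn5 and Kcnmb4. Kcnn3 was at 6.0, 7.37 and 5.11 CPM in control and 9.51, 8.53 and 8.08 CPM in HuD cells, a log2 change of 0.50 ± 0.21 (SE, edgeR unadjusted p = 0.0374, adjusted p = 0.835). With the block the unadjusted p was 0.0106 and the adjusted p 0.129. In total RNA its log2 change was -0.05 ± 0.12 (SE). Cacnb1, a calcium channel beta subunit, was at 19.4, 17.0 and 16.2 CPM in control and 22.4, 20.6 and 22.8 CPM in HuD cells, a log2 change of 0.32 ± 0.15 (SE, edgeR unadjusted p = 0.0593, with the block 0.0193). Cacnb1 and Cacng5 were the genes whose HuD values lay above control without overlap in total RNA, polysomal RNA and 3' ends alike, 5.56% of the 36, against 0.457% of 9403 genes with values in all 3. Both were singled out after their values were seen.

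Others under an unadjusted p of 0.05 with the block were Scn3b, Kcnd2 and Kcnab2. Scn3b was at 22.7, 23.5 and 25 CPM in control and 31.7, 22.4 and 34.9 CPM in HuD cells, higher in 2 of 3 same-numbered pairs. Kcnd2, a pore of the transient A-type current, was higher in 3 of 3 pairs, with a log2 change of 0.39 ± 0.18 (SE) in the blocked fit. Kcnab2 was lower in 3 of 3 pairs, from 7.45, 12.2 and 7.30 CPM to 5.90, 8.62 and 6.21 CPM. Across total RNA, polysomal RNA and 3' ends, 15 of the 36 genes had a log2 change above 0 in all 3 and 4 had one below 0 in all 3. The same count was not made over all genes, so nothing is read from it.

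**Figure D4:**
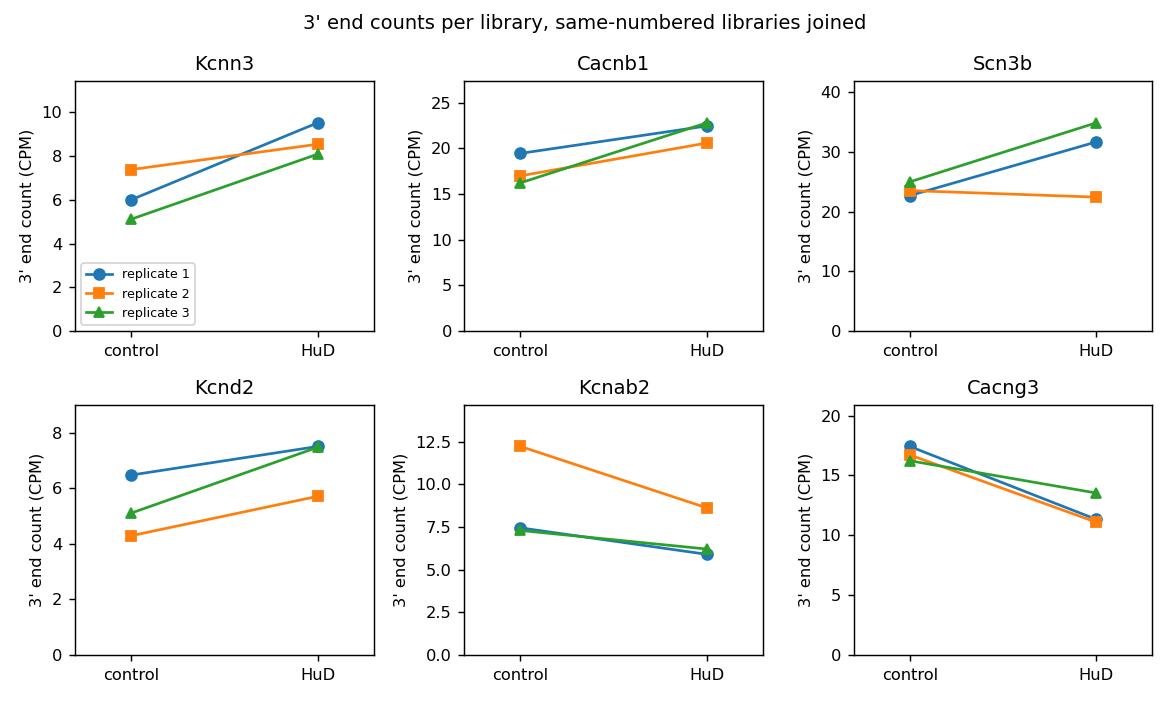
3' end counts in CPM (y axis, from 0) of 6 channel genes in control and HuD libraries, with a line for each replicate number. These were under an unadjusted p of 0.05 in the blocked fit: all 3 lines rise for Kcnn3, Cacnb1 and Kcnd2, all 3 fall for Kcnab2 and Cacng3, and 2 of 3 rise for Scn3b.

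Without 3' end HuD 1 the unblocked count went from 2 to 0 (3.37% of all genes), without 3' end control 3 to 1 (Cacng3, 2.78% against 3.51%), and without 3' end HuD 2 to 5 (13.9% against 13.4%). Using the libraries numbered 1 and 3 alone, which was chosen after the data were seen, gave 5, with Cacng3, Kcnj4, Kcnn3 and Scn3b among them, or 13.9% against 14.3% of all genes, all at an adjusted p above 0.05.

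HuD is known to act on the choice of polyadenylation site, so the use of ends within a gene was compared as well. The study itself found HuD targets not enriched among the genes whose site use differed with HuD. The 36 channel genes had 51 unique ends, which merged into 41, and 32 genes had 1 end. The 4 with more than 1 included Scn8a, Cacna1c and Cacna2d1. None of the 4 changed its end use, at an adjusted p of 0.05 (all genes 0%) or an unadjusted p under 0.05 (all genes 0.488%), by edgeR's diffSpliceDGE with Simes' method. The unadjusted p was 0.878 for Scn8a, 0.550 for Cacna1c and 0.908 for Cacna2d1.

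Cacna1c, at chromosome 6, gave 30.0% ± 3.55 (SD, n = 3) of reads to the end 5064 nt before the last in control, against 38.1% ± 5.50 (SD, n = 3) with HuD. Those shares were 31.0%, 33.0% and 26.1% in control against 33.7%, 44.2% and 36.4% in HuD cells. The test of end use did not call this difference (diffSpliceDGE with Simes' method, unadjusted p = 0.550). Cacna2d1 gave 31.3% ± 6.29 (SD, n = 3) to the end 3460 nt before the last in control, against 32.9% ± 9.94 (SD, n = 3) with HuD.

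Scn8a had 3 ends, of which the first and second lie 84464 and 71162 nt before the last, within the gene. Its last end, at position 101045929 of chromosome 15, took 57.4%, 28.0% and 61.7% of reads in control and 52.6%, 31.1% and 62.2% in HuD cells. The split followed the replicate number and not HuD, with the libraries numbered 2 low in both groups. The cause was not tested.

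**Figure D5:**
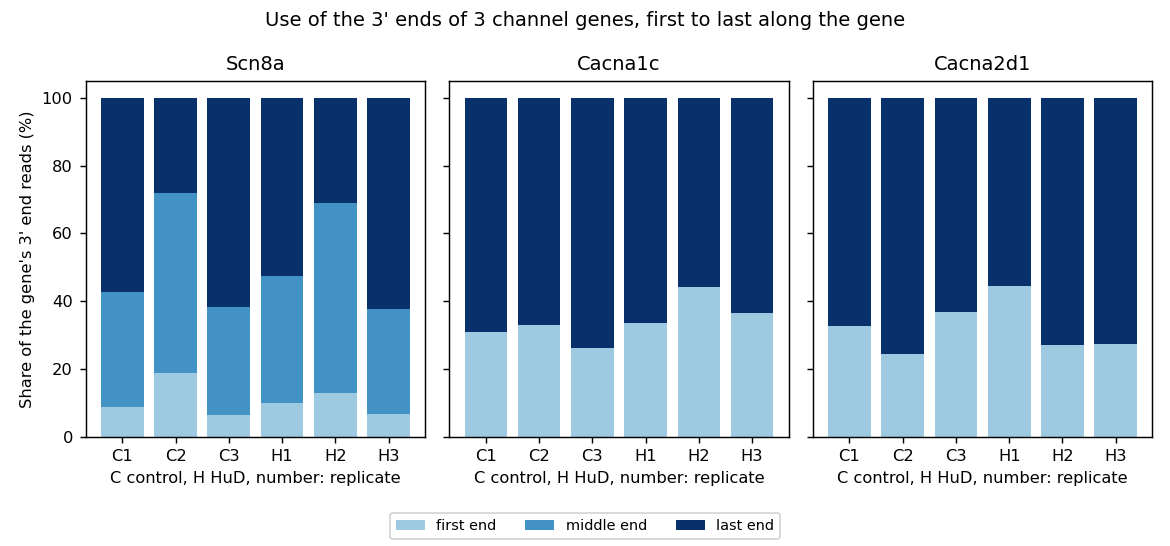
Share of each gene's 3' end reads in percent (y axis, stacked bars) at its first to last end, in 3 control (C) and 3 HuD (H) libraries, for Scn8a, Cacna1c and Cacna2d1. The last end of Scn8a is at 28.0% and 31.1% in C2 and H2 and at 52.6% or more in the others.

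Genes that work with these channels, such as ankyrins, calmodulins, Fgf homologues, the pacemaker channels and the Nalcn complex, were counted in the same way. Of 49 listed, 35 were in the table. None passed an adjusted p of 0.05 in edgeR or DESeq2 in any of the comparisons of total RNA, polysomal RNA, TE, polysomal against total RNA or 3' end counts. At an unadjusted p under 0.05 in edgeR there were 0 in total RNA and TE (all genes 2.64% and 0.979%), as in DESeq2, and 1 of 35, against 4.17% of all genes, in polysomal RNA. It was Sptbn4, a spectrin of the axon initial segment, with a log2 change of 0.32 ± 0.11 (SE, edgeR unadjusted p = 0.0170), and DESeq2 gave none. In 3' ends there was 1 of 22, against 5.86% of all genes, in edgeR and DESeq2 alike, Stac, with a log2 change of -0.76 ± 0.29 (SE, edgeR unadjusted p = 0.0291). In control cells, Hcn3, a pacemaker channel, and Stac2 were less polysomal by log2 differences of -0.26 and -0.26, and Ostm1, the partner of Clcn7, more so by 0.18. These were 3 of 35, against 10.7% of all genes, and DESeq2 gave Hcn3 alone, against 8.89% of all genes. A CRAC site was listed for 3 of the 35, Calm3 and Ostm1 among them, or 8.57% against 9.90% of all coding genes.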

How the data were processed

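For total and polysomal RNA (TruSeq Stranded mRNA), the authors deposited raw gene-level read counts made with STAR 2.5.3a on GRCm38.p4 with Gencode M6, without normalization. For 3' ends (QuantSeq REV), the authors deposited counts of read starts within 10 nt of known polyadenylation sites. For CRAC, the authors collapsed duplicates, aligned with TopHat2 2.0.14, pooled replicates, and deposited for every site its coverage (a signal, in reads), the count of reads with a deletion, a combined p-value that is not adjusted, and a score against their positional weight matrix.

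Counts were tested with edgeR 4.0.16 in R 4.3.3 (TMM, filterByExpr, quasi-likelihood, Benjamini-Hochberg at 0.05) on all genes, with all 8 libraries of total and polysomal RNA in 1 fit, and DESeq2 1.42.0 as an alternative. The TE change is the HuD by fraction interaction. 3' ends within 20 nt were merged, which left 11338 of 14536 unique ends. CPM and FPKM were computed from the counts, with GENCODE vM21 exon lengths, and 3' UTRs were taken from its transcripts. Site sequences were matched to those transcripts, which moved listed windows by 1 nt (plus strand) or 2 nt (minus strand). Python 3.11.15 and pandas 2.3.3 made the summaries, and matplotlib 3.10.9 the figures. The edgeR fit of total and polysomal RNA without a replicate block and the test of end use were run on simulated data. The other procedures were not tested in this way.

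The members and lists were chosen with earlier results of these data known. Named genes are those with a CRAC site, those under an unadjusted p of 0.05 in a comparison, the 3 highest by FPKM of each role, the 5 with the smallest p in each direction for polysomal against total RNA, and those with more than 1 end. Genes under p of 0.05 in the blocked fit, Elavl4 and the genes listed as not overlapping were added to these after their values were seen. Same-numbered 3' end libraries deviated together (correlations of 0.400, 0.658 and 0.515 over genes). For 3' end counts, a fit with the replicate number of the labels as a block is therefore given beside the main fit, which had none. With biological replicates not described further, p-values measure the spread between these samples. Results for some genes that the rule names are not reported here.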

Additional observations from a re-analysis of the deposited data

Results flagged for a closer look

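Kcnab1, a beta subunit of Shaker-type potassium channels, had a HuD site in CRAC but no row in the RNA-Seq and POL-Seq table, so it is outside the set and its level was not analysed here. The site had 10 covering reads in HuD cells, 9 of them with a deletion, and no read in control cells, with an authors' combined p-value of 0.0961. It lies at chr3:65354319-65354325 (GRCm38, plus strand) in a transcript annotated as a retained intron. Its sequence is shown because it had more deletions than either site in the set, with the scored window in capitals.
Kcnab1 site, 5' to 3': uuauuuuauuuUAUUUUUgguuuuucgau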

How the results depend on the processing

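No channel gene passed an adjusted p of 0.05 under any alternative that used all libraries. Counts at an unadjusted p under 0.05 moved as follows. With a replicate block, total RNA went from 2 to 8 (10.4% against 6.16% of all genes), polysomal against total RNA in control cells from 6 to 10 (13% against 20.6%), and 3' ends from 2 to 8 (22.2% against 18.7%), while polysomal RNA and TE stayed within 1.5 times. With DESeq2, total RNA, polysomal RNA and 3' ends went to 1 each (1.17%, 2.48% and 4.71% of all genes). Fitting the 2 groups alone gave 2 in polysomal RNA (2.15% of all genes) and 3 in polysomal against total RNA (5.08%). The libraries numbered 1 and 3 alone, chosen after seeing the data, gave 5 for 3' ends (14.3% of all genes). Channel genes with a CRAC site went from 2 to 0 at a combined p under 0.05, where 2.19% of all coding genes had one. They also went to 0 at 5 deletions or more (6.04%), and stayed at 2 with no control read (9.80%). Leaving out 1 library at a time gave 0 to 3 genes in total RNA, 1 to 13 in polysomal RNA, 0 to 6 in TE, 1 to 14 in polysomal against total RNA and 0 to 5 in 3' ends. At an adjusted p of 0.05 these fits gave 0 to 1 in polysomal RNA and 0 to 9 in polysomal against total RNA, above 0 only without POL control 1. Where a group is left with 1 library, its spread is assumed to be that of the other groups.

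For total and polysomal RNA the labels do not say what a replicate number shares, and with 2 libraries a group the 6 correlations of same-numbered libraries were 0.188 to 0.387. Over the 14 single gene values under an unadjusted p of 0.05, 180 refits gave no reversal, and 67 no longer passed. Of these 67, 13 were among the 72 refits other than those that dropped a single library. The 72 included fits of the 2 compared groups alone, without the libraries of the other groups, and fits without the pair numbered 2. For genes whose groups do not overlap, RLE size factors kept 26 higher and 6 lower in total RNA and gave 5 in place of 6 higher in 3' ends.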

Other observations

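Cacng2, a gamma subunit known from the stargazer mouse, split by replicate number and not by HuD or fraction. It was at 11 CPM in RNA control 1, 10.4 CPM in RNA HuD 1, 10.0 CPM in POL control 1 and 9.52 CPM in POL HuD 1. In the libraries numbered 2 it was at 5.52, 5.93, 4.71 and 5.69 CPM in the same order. It was the only one of 62 channel genes of at least 1 CPM, and among 26 of 12906 such genes in the table (0.201%), with a ratio over 1.5 in the same direction in all 4 groups. No 3' end was counted for it, and it was singled out after its values were seen.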
